A study of Arabidopsis thaliana with 24 samples.

Results

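AT1G65500, AT4G15690 and AT3G46880 are 3 Arabidopsis thaliana genes whose root transcripts stood out in the series because low iron moved them in opposite directions in 2 genotypes. In wild-type roots their signal was higher on medium without available iron, and in roots of the rglg1/2 double mutant it was lower on that medium. They were chosen by their root values alone, as the probe sets called in the genotype by iron interaction of the root arrays. Each gene was read from 1 probe set of the Affymetrix ATH1 array that the platform annotation gives to that gene alone (264635_at, 245505_at and 252501_at). They are 3 of 17810 probe sets tested and of 9726 loci named by a probe set of their own.

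AT4G15690 belongs to the glutaredoxin family. Glutaredoxins are small oxidoreductases that use glutathione to reduce disulphides or to remove glutathione from proteins, and some hold iron-sulphur clusters. The plant-specific CC-type, in which a list made for this work places AT4G15690, includes ROXY1 and ROXY2, known from petal and anther development, and GRX480, known to bind TGA transcription factors and to repress jasmonate-responsive genes. No function is attached to AT1G65500 or AT3G46880 in the annotation used here, and none is assumed. RGLG1 and RGLG2, the genes mutated in rglg1/2, encode RING-domain ubiquitin ligases. Roots short of iron switch on a well-known set of genes for taking up and mobilising the metal, under the control of bHLH transcription factors.

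The plants were rglg1/2 double mutants or wild-type Col, the ecotype shared by name in all labels. They grew at 21 °C in continuous light, were moved at 10 days of age to their medium for 3 days, and were 13 days old at harvest. The -Fe medium held 100 µM of a ferrozine-type chelator, which binds iron, and the +Fe medium held 40 µM FeEDTA. Leaves and roots were collected, which gives 8 groups: rglg1/2 leaves -Fe, rglg1/2 leaves +Fe, Col leaves -Fe, Col leaves +Fe, rglg1/2 roots -Fe, rglg1/2 roots +Fe, Col roots -Fe and Col roots +Fe. Each held 3 arrays, called biological replicates in the labels. How many plants were pooled for an array, and whether replicates came from separate plantings, is not given in the sources used here; if they did not, the p-values measure only the spread between these samples. The mutant was compared as 1 double mutant line. Values are log2 signals centred so that each probe set has a median of 0 over the 24 arrays. They show differences between arrays, carry no absolute level, and cannot rank one gene above another. In whole roots or leaves, fewer cells of a type and less RNA per cell cannot be told apart.

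The replicate 3 arrays of rglg1/2 leaves stood apart: over all probe sets their correlation with replicates 1 and 2 was 0.852 to 0.905, where pairs within the Col leaf groups gave 0.944 to 0.971 and pairs within the root groups 0.933 to 0.984. These rglg1/2 leaf arrays, 1 on each medium, also lay between the genotypes on the first leaf component (53.1% of variance). Whether they hold the labelled material was not tested, so each leaf genotype difference, iron response and interaction of the 3 genes is given with and without them. The treatment was visible in known targets: all 9 probe sets of 8 measured iron-deficiency genes (of 18 listed) rose on -Fe in the roots of both genotypes, and 4 of 9 rose in the leaves of each, by limma. Of all probe sets, 2.87% rose in rglg1/2 roots and 2.2% in Col roots, and 0.157% rose in rglg1/2 leaves and 0.511% in Col leaves. EXPA7 and EXPA18, expansins of root hairs, were lower in leaves than in roots by log2 -4.88 and -5.18, and RCA, the chloroplast protein rubisco activase, was higher in leaves by 4.36. YUC2, the third measured of 12 listed root markers, was higher in leaves by 0.47. RCA was the only 1 of 16 listed green-tissue markers measured, where measured means that a probe set names the gene alone. It was low in all root groups, averaging -2.88 in rglg1/2 roots -Fe, -2.28 in rglg1/2 roots +Fe, -2.87 in Col roots -Fe and -1.89 in Col roots +Fe. Its root signal fell on -Fe in both genotypes (log2 -0.60 in rglg1/2, adjusted p = 0.029; -0.97 in Col, adjusted p = 0.00117). Its part in the root values of the 3 genes was not tested. The difference between the array's 5′ and 3′ control probe sets, a sign of RNA quality, averaged 0.01 ± 0.15 (SD, n = 3) in rglg1/2 roots +Fe and 0.23 to 0.26 in the other root groups. In rglg1/2 leaves -Fe it averaged -0.16 ± 0.15 (SD, n = 3), against 0.07 to 0.09 in the other leaf groups. The part of these differences in the results was not tested either.

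The root values come first, as a description and without a test, because root arrays chose the genes. AT1G65500 had signals of -0.93, -0.99 and -1.21 in rglg1/2 roots -Fe, against 0.07, -0.07 and -0.39 in rglg1/2 roots +Fe. In Col roots -Fe the signals were -1.11, -1.01 and -1.83, against -3.33, -2.72 and -2.68 in Col roots +Fe. Col roots +Fe therefore stood lowest on all 3 arrays, rglg1/2 roots +Fe stood highest on all 3, and both -Fe groups lay between them and overlapped each other. The iron response (-Fe minus +Fe) was -0.91 ± 0.21 (moderated SE) in rglg1/2 roots, a 1.88-fold lower signal, and 1.59 ± 0.21 in Col roots, a 3.01-fold higher signal. On +Fe the rglg1/2 roots exceeded Col roots by 2.78 ± 0.21, or 6.86-fold, and on -Fe by 0.28 ± 0.21.

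AT4G15690, the glutaredoxin, had -1.18, -1.33 and -1.44 in rglg1/2 roots -Fe, against -0.38, -0.72 and -0.56 in rglg1/2 roots +Fe. The Col roots gave -0.84, -1.30 and -0.95 on -Fe, against -1.69, -1.995 and -1.43 on +Fe. The order of the 4 groups was close to that of AT1G65500: rglg1/2 roots +Fe lay above every other root array, Col roots +Fe lay lowest on average, and the 2 groups on -Fe overlapped. Its iron response was -0.76 ± 0.15 in rglg1/2 roots and 0.68 ± 0.15 in Col roots, and the rglg1/2 roots were 2.22-fold higher than Col roots on +Fe (log2 1.15 ± 0.15). On -Fe the genotype difference was -0.29 ± 0.15.

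AT3G46880 had 0.07, -0.14 and -0.32 in rglg1/2 roots -Fe, against 0.74, 0.47 and 0.25 in rglg1/2 roots +Fe. It had 0.77, 0.60 and 0.83 in Col roots -Fe, against -0.08, 0.10 and 0.08 in Col roots +Fe. Here the pattern was a crossing rather than a high mutant baseline: Col roots -Fe and rglg1/2 roots +Fe were the 2 high groups and overlapped, and rglg1/2 roots -Fe and Col roots +Fe were the 2 low groups and overlapped. The iron response was -0.61 ± 0.13 in rglg1/2 roots and 0.70 ± 0.13 in Col roots. The genotype difference was 0.45 ± 0.13 on +Fe and -0.86 ± 0.13 on -Fe, and neither comparison had overlapping arrays.

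**Figure D1:**
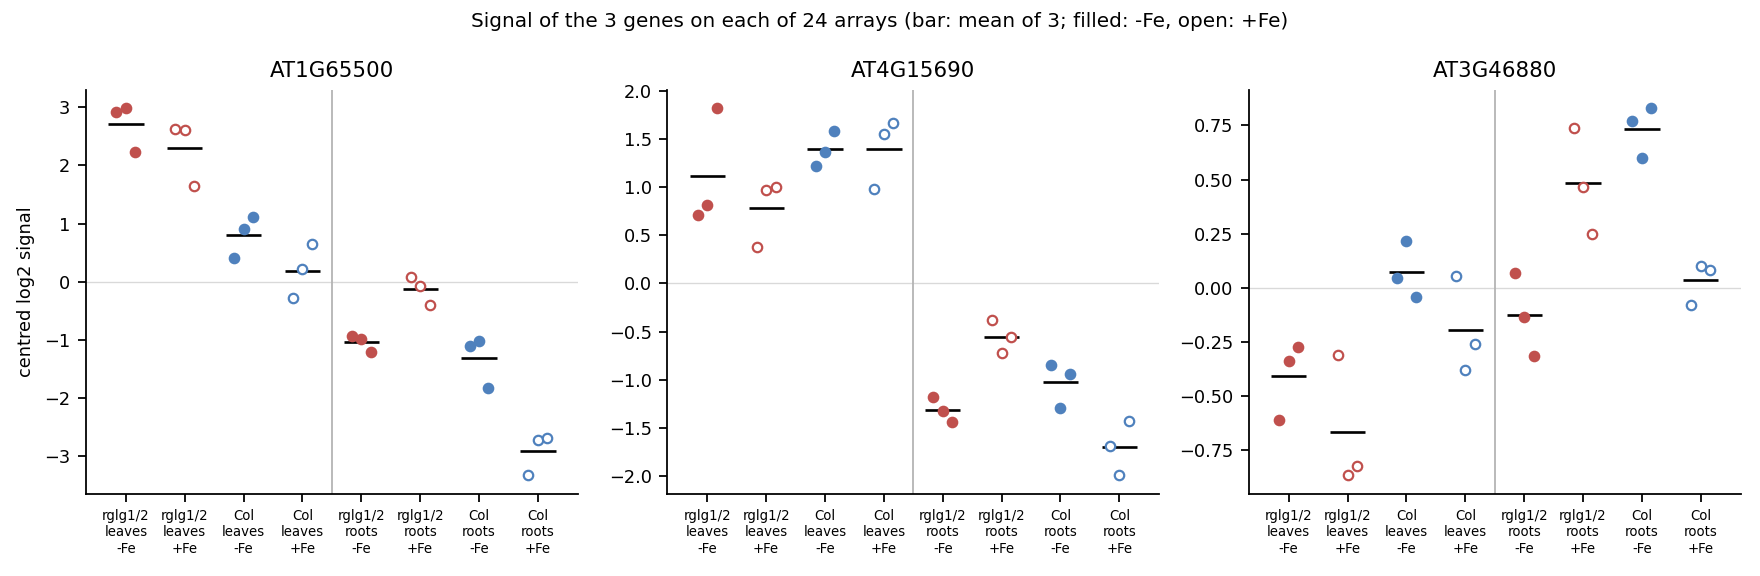
Centred log2 signal of AT1G65500, AT4G15690 and AT3G46880 (1 panel each, own scale) on every array, by group; filled points are -Fe, open points +Fe, red rglg1/2, blue Col, and the bar is the mean of 3 arrays. In Col roots +Fe, AT1G65500 lies at -3.33 to -2.68, below every other array.

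Across the 3 genes the root interaction, the rglg1/2 response minus the Col response, was -2.50 ± 0.30 for AT1G65500, -1.44 ± 0.21 for AT4G15690 and -1.31 ± 0.18 for AT3G46880. The interaction was called at 0.0168% of all probe sets (3 of 17810, the 3 genes themselves), which restates how they were chosen. The groups did not overlap in either genotype's iron response for any of the 3 genes, where 7.11% of all probe sets were called for rglg1/2 roots and 5.17% for Col roots. The same held for the genotype difference on +Fe (10.7% called), and for AT3G46880 alone on -Fe (3.89% called). These shares count calls and not separate groups. The share of all probe sets whose groups did not overlap was not counted. Nothing is read from the shares or from the separation, since the same contrasts made the choice. Among single-gene probe sets, the first outside the threshold were those of AT1G72060, with an interaction of -1.03 ± 0.16, and the glutaredoxin AT1G06830, with -1.34 ± 0.22. With the 3 genes, these were the only probe sets called in opposite directions in the 2 root responses, 5 in all. The count rests on single arrays. Leaving out any 1 of 5 of the 6 rglg1/2 root arrays ended the rglg1/2 call of AT1G72060 (adjusted p of 0.0644 to 0.104), and for AT1G06830 4 of 6 omissions ended the call in rglg1/2 roots (0.0579 to 0.0929) and 4 of 6 that in Col roots (0.0639 to 0.132).

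The groups that differed in both genotype and medium were also set side by side, as a description. The signal of rglg1/2 roots -Fe minus that of Col roots +Fe was 1.87 for AT1G65500, 0.39 for AT4G15690 and -0.16 for AT3G46880. The signal of rglg1/2 roots +Fe minus that of Col roots -Fe was 1.19, 0.48 and -0.25 in the same order of genes. AT1G65500 averaged higher in each rglg1/2 root group than in either Col root group, whereas AT3G46880 in each rglg1/2 group lay near the Col group on the other medium. No difference between the genes was tested. When the replicate 3 arrays of both rglg1/2 root groups were left out, the interactions were -2.55, -1.38 and -1.34.

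The leaf arrays took no part in choosing the genes and could be tested. AT1G65500 had 2.92, 2.98 and 2.23 in rglg1/2 leaves -Fe, against 0.41, 0.90 and 1.12 in Col leaves -Fe. On +Fe it had 2.63, 2.62 and 1.66 in rglg1/2 leaves, against -0.28, 0.21 and 0.65 in Col leaves. Every rglg1/2 leaf array exceeded every Col leaf array, and replicate 3 was the lowest rglg1/2 array on each medium. The share of all probe sets with leaf arrays separate by genotype was not counted. The signal was higher in rglg1/2 leaves by 1.90 ± 0.32 on -Fe (3.73-fold, limma adjusted p = 0.00352, n = 3 per group) and by 2.11 ± 0.32 on +Fe (4.31-fold, adjusted p = 0.0021). Of all probe sets, 15.9% were called on -Fe and 14.4% on +Fe, with 6.18% and 7.18% called higher and 9.77% and 7.18% called lower, so a call of this kind was common in these leaves. Without the replicate 3 arrays of rglg1/2 leaves the differences were 2.14 ± 0.25 and 2.43 ± 0.25, with adjusted p of 0.000232 and 0.000142.

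The other 2 genes were not called between genotypes in leaves, and their estimates pointed down. AT4G15690 had 0.71, 0.82 and 1.82 in rglg1/2 leaves -Fe, against 1.22, 1.37 and 1.59 in Col leaves -Fe. It had 0.38, 0.97 and 1.002 in rglg1/2 leaves +Fe, against 0.98, 1.55 and 1.67 in Col leaves +Fe. The groups overlapped on both media, and replicate 3 of rglg1/2 leaves -Fe was the highest of all 24 arrays. The genotype difference was -0.28 ± 0.29 on -Fe (adjusted p = 0.536; 95% interval -0.90 to 0.35) and -0.62 ± 0.29 on +Fe (adjusted p = 0.16; -1.24 to 0.0036). Both estimates moved with the replicate 3 arrays of rglg1/2 leaves. Without these arrays the -Fe difference was -0.63 ± 0.22, just outside the threshold (adjusted p = 0.0512), and the +Fe difference was -0.73 ± 0.22 and passed it (adjusted p = 0.0289).

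AT3G46880 had -0.61, -0.34 and -0.28 in rglg1/2 leaves -Fe, against 0.04, 0.22 and -0.04 in Col leaves -Fe. It had -0.31, -0.87 and -0.82 in rglg1/2 leaves +Fe, against 0.05, -0.38 and -0.26 in Col leaves +Fe. The groups were separate on -Fe and overlapped on +Fe through replicate 1 of rglg1/2 leaves +Fe. How many of all probe sets had separate groups was not counted. The genotype difference was -0.48 ± 0.17 on -Fe (adjusted p = 0.0723; 95% interval -0.85 to -0.11) and -0.47 ± 0.17 on +Fe (adjusted p = 0.0827; -0.84 to -0.10). On -Fe it passed the threshold without the rglg1/2 replicate 3 arrays (-0.55 ± 0.18, adjusted p = 0.0425) and in a fit of all 24 arrays (adjusted p = 0.0259). On +Fe it was -0.39 ± 0.18 without both replicate 3 arrays (adjusted p = 0.13). It passed without replicate 1 of rglg1/2 leaves +Fe (-0.65, adjusted p = 0.0405), with array weights (-0.60, adjusted p = 0.00376) and in the fit of all 24 arrays (adjusted p = 0.0301). The fit of all 24 arrays takes part of its spread from the root arrays that chose this gene. Its calls are therefore not independent of that choice.

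No iron response was called in leaves for any of the 3 genes, in a setting where few probe sets were called (0.427% in rglg1/2 leaves and 1.03% in Col leaves). For AT1G65500 the response was 0.41 ± 0.32 in rglg1/2 leaves (adjusted p = 0.77) and 0.62 ± 0.32 in Col leaves (adjusted p = 0.505). For AT4G15690 it was 0.34 ± 0.29 in rglg1/2 leaves (adjusted p = 0.799) and -0.01 ± 0.29 in Col leaves (adjusted p = 0.998). For AT3G46880 it was 0.26 ± 0.17 in rglg1/2 leaves (adjusted p = 0.722) and 0.27 ± 0.17 in Col leaves (adjusted p = 0.611). The -Fe and +Fe arrays overlapped for all 3 genes in both genotypes. Without the replicate 3 arrays the rglg1/2 leaf responses were 0.32 ± 0.27 for AT1G65500, 0.096 ± 0.24 for AT4G15690 and 0.11 ± 0.20 for AT3G46880, with adjusted p of 0.665, 0.901 and 0.852.

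The leaf interaction asks whether the opposite root responses recur in leaves. It was -0.21 ± 0.45 for AT1G65500 (adjusted p = 0.973), 0.34 ± 0.40 for AT4G15690 (adjusted p = 0.949) and -0.01 ± 0.24 for AT3G46880 (adjusted p = 0.998). The 95% intervals were -1.18 to 0.76, -0.54 to 1.22 and -0.53 to 0.51. The difference between the tissues was not tested. Without the rglg1/2 replicate 3 arrays the leaf interactions were -0.30 ± 0.35, 0.10 ± 0.31 and -0.15 ± 0.26 in the same order, with adjusted p of 0.902, 0.969 and 0.934. With limma, 0 of 17810 probe sets were called for this interaction (0%), and 910 had an unadjusted p under 0.05.

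**Figure D2:**
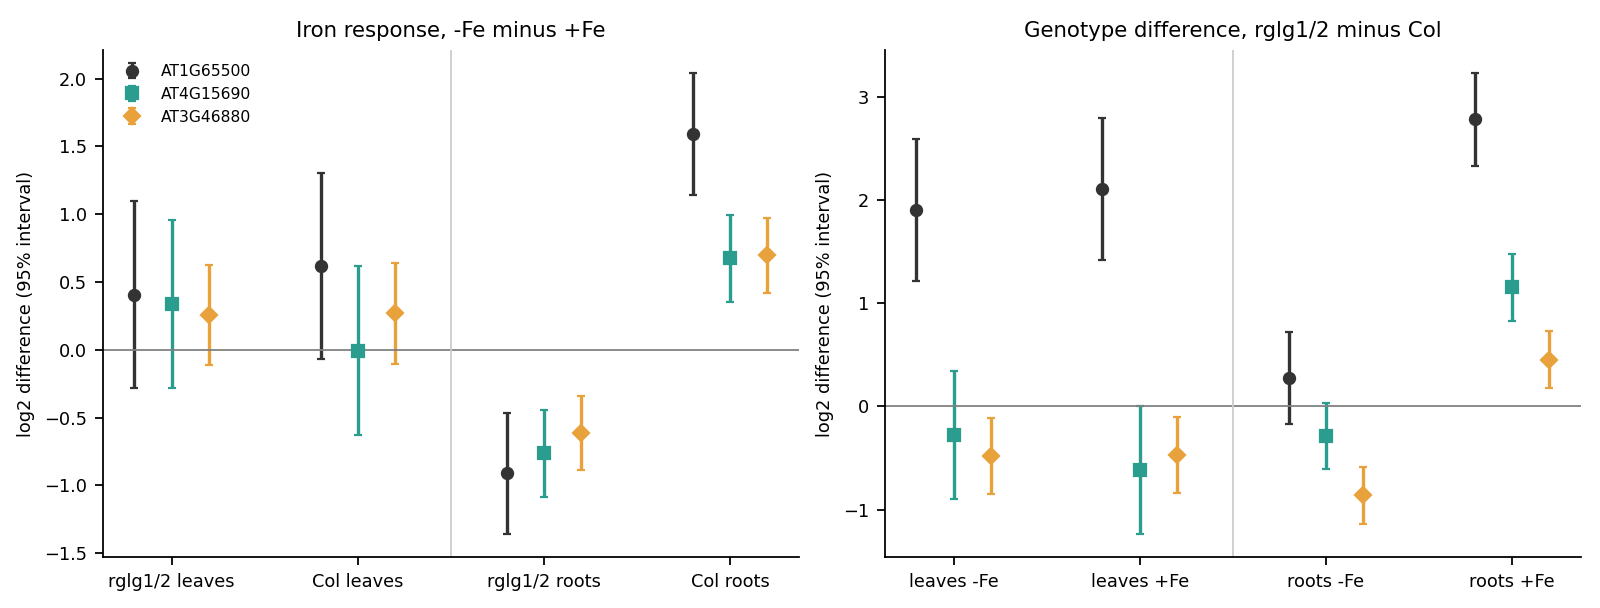
Log2 differences of the 3 genes with 95% intervals from limma: left, the -Fe minus +Fe difference by tissue and genotype; right, the genotype difference (rglg1/2 minus Col) in each tissue and medium. Root responses lie below 0 in rglg1/2 and above 0 in Col, leaf iron intervals all cross 0, and AT1G65500 alone is above 0 in the leaf genotype differences. Root arrays chose the genes, so the root intervals are a description and no test, and cannot be set against the leaf intervals as one.

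Averaged over genotypes and media, leaves and roots differed for all 3 genes. AT1G65500 was 7.23-fold higher in leaves than in roots (log2 2.85 ± 0.14, adjusted p = 2.6e-14), AT4G15690 was 5.01-fold higher (2.32 ± 0.12, adjusted p = 4.39e-14), and AT3G46880 was 1.5-fold lower (-0.58 ± 0.08, adjusted p = 5.09e-07). A tissue difference was called at 83.2% of probe sets, 37% higher and 46.1% lower in leaves, so the call itself sets no gene apart. The root arrays that chose the genes enter this comparison. The average over the root groups is balanced for the iron and genotype contrasts behind the choice, but the spread includes these arrays. The p-values therefore rest in part on arrays that made the choice. Single leaf and root arrays were fully separate for AT4G15690 only. The share of all probe sets separate between tissues in this way was not counted.

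The order of the 8 groups shows the balance of tissue, genotype and iron for each gene. For AT1G65500 it ran, from high to low, rglg1/2 leaves -Fe (2.71 ± 0.41, SD, n = 3), rglg1/2 leaves +Fe (2.30 ± 0.56), Col leaves -Fe (0.81 ± 0.36), Col leaves +Fe (0.19 ± 0.46), rglg1/2 roots +Fe (-0.13 ± 0.24), rglg1/2 roots -Fe (-1.04 ± 0.15), Col roots -Fe (-1.32 ± 0.45) and Col roots +Fe (-2.91 ± 0.36). Neighbours differed by less than the larger SD of the pair at 3 steps: between the rglg1/2 leaf groups, between Col leaves +Fe and rglg1/2 roots +Fe, and between the -Fe root groups. Roots of iron-fed mutants therefore reached the range of iron-fed Col leaves for this gene.

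For AT4G15690 the 4 leaf groups were at the top and lay within 1 larger SD of the next: Col leaves +Fe (1.40 ± 0.37), Col leaves -Fe (1.39 ± 0.19), rglg1/2 leaves -Fe (1.12 ± 0.61) and rglg1/2 leaves +Fe (0.78 ± 0.35). The roots followed, with rglg1/2 roots +Fe (-0.55 ± 0.17), Col roots -Fe (-1.03 ± 0.24), rglg1/2 roots -Fe (-1.31 ± 0.13) and Col roots +Fe (-1.70 ± 0.28). Each root step exceeded the larger SD, but only the step below rglg1/2 roots +Fe separated all arrays.

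For AT3G46880 the groups ran from Col roots -Fe (0.73 ± 0.12) and rglg1/2 roots +Fe (0.49 ± 0.25) through Col leaves -Fe (0.07 ± 0.13), Col roots +Fe (0.03 ± 0.10), rglg1/2 roots -Fe (-0.13 ± 0.19), Col leaves +Fe (-0.20 ± 0.22) and rglg1/2 leaves -Fe (-0.41 ± 0.18) to rglg1/2 leaves +Fe (-0.67 ± 0.31). Below the top 2 groups no step exceeded the larger SD of its pair. The group means of this gene spanned 0.86 in roots and 0.74 in leaves, the spans of AT1G65500 being 2.78 and 2.52.

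AT4G15690 lies in a run of 5 neighbouring glutaredoxin genes, AT4G15660 to AT4G15700, of which 4 had a probe set of their own. Whether these probe sets also respond to transcripts of the similar neighbours was not tested. AT4G15660 had the largest genotype difference in roots on +Fe, with -0.19, -0.98 and -0.70 in rglg1/2 roots, against -2.59, -2.61 and -2.05 in Col roots. All 3 measured neighbours were higher in rglg1/2 roots on +Fe, where 5.69% of all probe sets were: AT4G15660 by 1.79 ± 0.21 (adjusted p = 0.000162), AT4G15700 by 1.15 ± 0.14 (adjusted p = 0.000187) and AT4G15680 by 0.44 ± 0.13 (adjusted p = 0.0425). The AT4G15680 call was lost in 5 of 6 single omissions, all but that of Col roots +Fe replicate 1 (adjusted p of 0.0514 to 0.151), and without both rglg1/2 replicate 3 arrays (0.0686). On -Fe none of the 3 was called between genotypes in roots. The 3 neighbours were looked up because of AT4G15690, which these root arrays chose. Over the 12 root arrays they correlated with it at r = 0.62 to 0.91. Their root calls are therefore not independent of that choice.

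The neighbours' iron responses had the same signs as those of AT4G15690 but were called in 1 genotype at most. AT4G15660 rose in Col roots (0.92 ± 0.21, adjusted p = 0.0185) and its estimate in rglg1/2 roots was -0.65 ± 0.21. AT4G15700 fell in rglg1/2 roots (-0.65 ± 0.14, adjusted p = 0.0104) and had 0.24 ± 0.14 in Col roots. The first call was lost without Col roots +Fe replicate 1 or 2 or Col roots -Fe replicate 1 (adjusted p of 0.0779 to 0.0849). The second was lost without rglg1/2 roots +Fe replicate 1, rglg1/2 roots -Fe replicate 3, or both rglg1/2 replicate 3 arrays (0.0567 to 0.0753). All 3 neighbours were higher in leaves than in roots, by log2 1.85 to 3.49, where 37% of all probe sets were higher. None of the 3 was called in any leaf comparison. In rglg1/2 leaves -Fe replicate 3 was the highest array of its group for all 4 genes of the run.

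**Figure D3:**
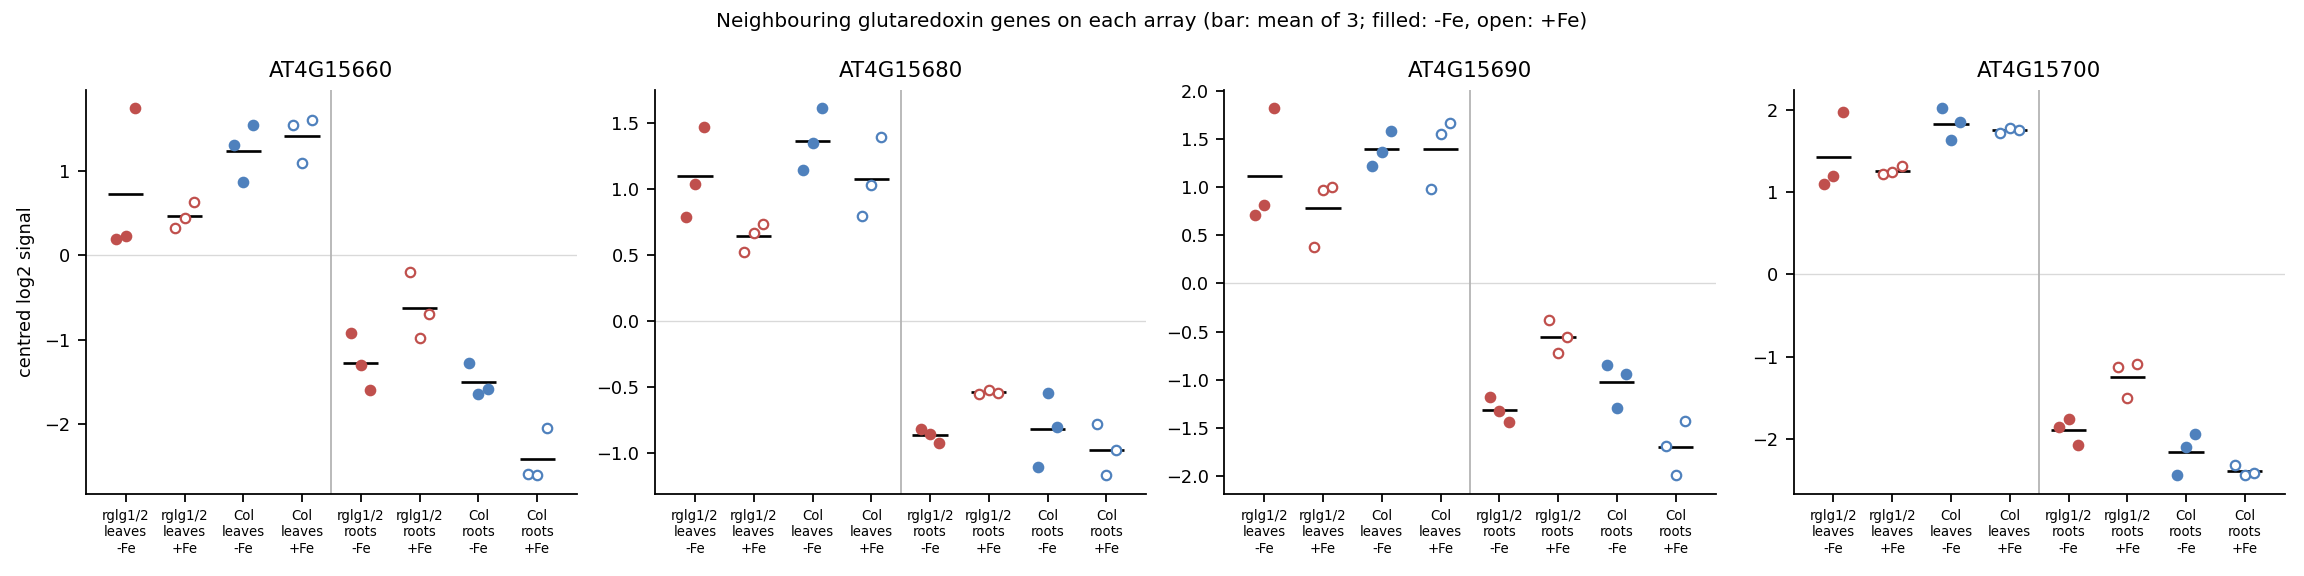
Centred log2 signal of AT4G15690 and its 3 measured neighbours on every array, by group, drawn as in the plot of the 3 genes. In roots, rglg1/2 +Fe has the highest mean for all 4 genes and Col +Fe the lowest.

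The wider CC-type list held 21 genes, of which 17 were measured, AT4G15690 and 16 others. Of those 16, 7 were higher and 0 lower in rglg1/2 roots on +Fe, where 5.69% of all probe sets were higher and 5.05% lower. After the run's members these were GRX480 (0.84 ± 0.19, adjusted p = 0.0138), AT2G30540 (0.84 ± 0.13, adjusted p = 0.00169), AT1G06830 (0.81 ± 0.16, adjusted p = 0.00603) and ROXY1 (0.32 ± 0.09, adjusted p = 0.0383). The median over the 16 was 0.15, against -0.01 over all probe sets. Single omissions gave a count of 4 to 6, the 4 without rglg1/2 roots +Fe replicate 1 or 2. The other alternatives gave 3 to 7, the 5 without both rglg1/2 replicate 3 arrays. The run's members in this count are not independent of the choice of AT4G15690. The GRX480 call was lost in 3 of 6 single omissions (adjusted p of 0.0547 to 0.0646) and that of ROXY1 in 4 of 6 (0.0884 to 0.113). On -Fe 1 of 16 was higher (GRX480, 0.83 ± 0.19) and 3 were lower (ROXY2 by -0.72 ± 0.13, AT3G62960 by -0.68 ± 0.18 and AT3G62930 by -0.66 ± 0.11), where 1.81% of all probe sets were higher and 2.08% lower. GRX480 was lost in 5 of 6 single omissions (adjusted p of 0.0659 to 0.097), all but that of Col roots -Fe replicate 3, and AT3G62960 in 6 of 6 (0.0691 to 0.206). The median was -0.02, against -0.01 over all probe sets.

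On low iron, 4 of the 16 fell and 0 rose in rglg1/2 roots: AT1G06830 (-0.69 ± 0.16), AT4G15700, AT2G30540 (-0.49 ± 0.13) and AT3G62930 (-0.43 ± 0.11). In Col roots 2 of 16 rose and 0 fell, AT4G15660 and AT1G06830 (0.65 ± 0.16). Over all probe sets 4.24% fell and 2.87% rose in rglg1/2 roots, and 2.97% fell and 2.2% rose in Col roots. The median response of the 16 was -0.17 in rglg1/2 roots and 0.16 in Col roots, with -0.00031 and 0.01 over all probe sets. These counts include AT4G15660 and AT4G15700, neighbours of AT4G15690 whose root calls are not independent of its choice, and were unstable. The first was 2 without both rglg1/2 replicate 3 arrays or without rglg1/2 roots -Fe replicate 1, it was 1 without rglg1/2 roots +Fe replicate 2 or -Fe replicate 2 or 3, and it was 0 without rglg1/2 roots +Fe replicate 1. The count in Col roots was 0 without Col roots +Fe replicate 1 or 2 and 1 without Col roots -Fe replicate 2 or 3. For the interaction 0 of 16 were called, 3 of 16 estimates were positive and the median was -0.29, against -0.0039 over all probe sets. Single omissions gave 0 to 3 called lower for the interaction, and the other alternatives gave 0 to 5.

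**Figure D4:**
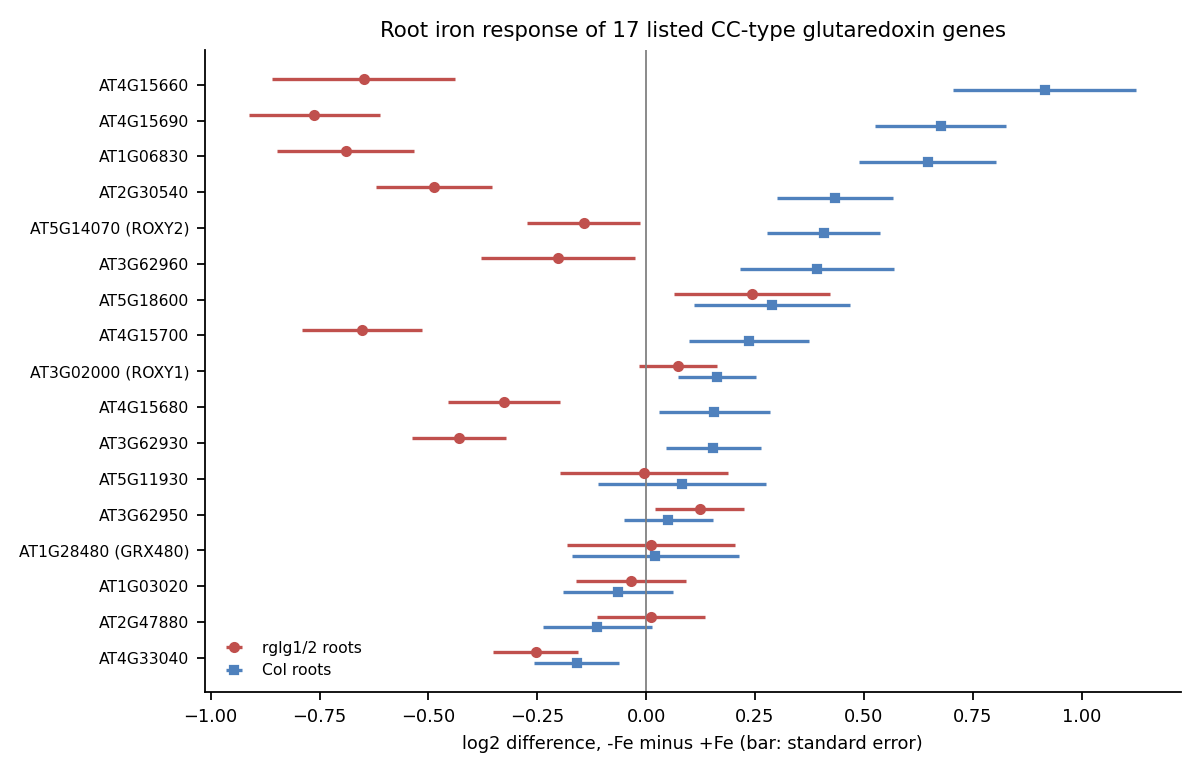
Root iron response (log2, -Fe minus +Fe, with standard error) of the 17 measured CC-type glutaredoxin genes, rglg1/2 as red circles and Col as blue squares, ordered by the Col value. AT4G15690 has -0.76 in rglg1/2 and 0.68 in Col roots; genes at the bottom of the plot have small values in both genotypes.

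In leaves the calls among the same 16 genes went both ways. On -Fe 2 were higher in rglg1/2 (GRX480 by 1.21 ± 0.36 and AT4G33040 by 1.06 ± 0.14) and 2 lower (AT3G62950 by -2.21 ± 0.37 and AT1G03020 by -0.69 ± 0.17), where 6.18% of all probe sets were higher and 9.77% lower. On +Fe 2 were higher (GRX480 by 1.73 ± 0.36 and AT4G33040 by 0.80 ± 0.14) and 2 lower (AT3G62950 by -2.13 ± 0.37 and AT3G62930 by -1.01 ± 0.28), where 7.18% of all probe sets were higher and 7.18% lower. With 16 genes such counts lie near these shares. The medians were -0.24 on -Fe and -0.41 on +Fe, against -0.04 and -0.01 over all probe sets. Without both rglg1/2 replicate 3 arrays 7 of 16 were lower on each medium, and 3 and 2 were higher on -Fe and +Fe. Leaving out 1 array gave 1 to 6 lower and 1 to 3 higher on -Fe, the 6 without rglg1/2 leaves -Fe replicate 3, and 1 to 2 lower and 2 higher on +Fe. The lower count on +Fe was also 12 with array weights, 5 with all 24 arrays and 1 with quantile normalization. Single omissions ended the call of GRX480 on -Fe in 5 of 6 cases (adjusted p of 0.0616 to 0.135), of AT1G03020 on -Fe in 2 of 6 (0.066 to 0.0697) and of AT3G62930 on +Fe in 5 of 6 (0.0811 to 0.127). No iron response was called among the 16 in leaves of either genotype (medians 0.11 in rglg1/2 and -0.09 in Col), and no leaf interaction (median 0.14). For the iron response, alternatives gave up to 1 higher and 2 lower in rglg1/2 leaves, and up to 1 lower in Col leaves. Between tissues 13 of 16 were higher and 1 was lower in leaves (ROXY2, -0.55 ± 0.09), where 37% of all probe sets were higher and 46.1% lower. The median was 1.62, against -0.08 over all probe sets.

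Glutaredoxins of the other types, with CPYC or CGFS active sites, were measured for 5 of 10 listed genes. In rglg1/2 leaves 3 of 5 were higher on -Fe (GRXC1 by 0.93 ± 0.17, AT1G77370 by 0.64 ± 0.16 and GRXC2 by 0.58 ± 0.17) and 2 of 5 on +Fe (GRXC1 by 0.66 ± 0.17 and AT1G77370 by 0.60 ± 0.16), against 6.18% and 7.18% of all probe sets. Only the GRXC1 call on -Fe held in every single omission: the other 4 calls were lost in 4 or 5 of 6 (adjusted p of 0.0541 to 0.134). In rglg1/2 roots GRXC1 alone was higher on +Fe (0.54 ± 0.13; adjusted p of 0.0543 and 0.0708 without rglg1/2 roots +Fe replicate 1 or 2), where 5.69% of all probe sets were, and none of 5 was called on -Fe. No iron response and no interaction was called among them. Between tissues 2 were higher and 2 lower in leaves, where 37% of all probe sets were higher and 46.1% lower.

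Other lists that touch CC-type glutaredoxins were thinly measured. Over all probe sets, 6.18% were higher and 9.77% lower in rglg1/2 leaves on -Fe, and 4.24% fell on -Fe in rglg1/2 roots. Between tissues 37% were higher and 46.1% lower in leaves. With so few genes measured, nothing is read from the calls that follow. Nitrate response genes were measured for 3 of 16: AT1G68670 was lower in rglg1/2 leaves on -Fe (-0.94 ± 0.20), AT3G25790 fell on -Fe in rglg1/2 roots (-0.56 ± 0.14), and in leaves against roots 1 was higher and 1 lower. Type-A response regulators, which cytokinin induces, were measured for 2 of 10: RR16 was higher in rglg1/2 leaves on -Fe (1.30 ± 0.25) and fell on -Fe in rglg1/2 roots (-0.56 ± 0.14), and both were higher in leaves than in roots. Both of these root calls were lost in single omissions, that of AT3G25790 in 4 of 6 (adjusted p of 0.0655 to 0.145) and that of RR16 in 5 of 6 (0.0545 to 0.121). Of 10 defence markers only PDF1.2, a defensin gene, was measured, and it was called in no comparison other than tissue (4.93 ± 0.21 higher in leaves).

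AT1G65500 has AT1G65490 and AT1G65510 as its adjacent protein-coding genes, and both were measured. AT1G65510 had -0.19, -0.16 and -0.67 in rglg1/2 leaves -Fe, against -2.56, -2.75 and -2.29 in Col leaves -Fe. It was higher in rglg1/2 leaves by 2.19 ± 0.22 on -Fe (adjusted p = 0.000256) and by 2.15 ± 0.22 on +Fe (adjusted p = 0.000296), sizes close to those of AT1G65500. AT1G65490 was higher in rglg1/2 leaves by 0.78 ± 0.23 on -Fe (adjusted p = 0.0393), a call lost without Col leaves -Fe replicate 1 or 3 or rglg1/2 leaves -Fe replicate 1 or 2 (adjusted p of 0.0829 to 0.131). On +Fe its difference was 0.58 ± 0.23 (adjusted p = 0.111).

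In roots neither neighbour was called between genotypes on +Fe. AT1G65510 differed between genotypes by 0.14 ± 0.12 on +Fe (adjusted p = 0.48), and its root interaction was -0.26 ± 0.17 (adjusted p = 0.697). AT1G65490 had -2.02, -2.24 and -3.10 in rglg1/2 roots +Fe, so that 2 of 3 arrays lay above Col roots +Fe, and its difference was 0.57 ± 0.19 (adjusted p = 0.0753). Its iron response was -0.56 ± 0.19 in rglg1/2 roots (adjusted p = 0.1) and -0.12 ± 0.19 in Col roots (adjusted p = 0.823), and its interaction was -0.43 ± 0.27 (adjusted p = 0.692). AT1G65490 was higher in leaves than in roots by log2 5.70, as AT1G65500 was, and AT1G65510 was lower by -2.09. None of the 4 nearest protein-coding genes of AT3G46880 had a probe set of its own.

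**Figure D5:**
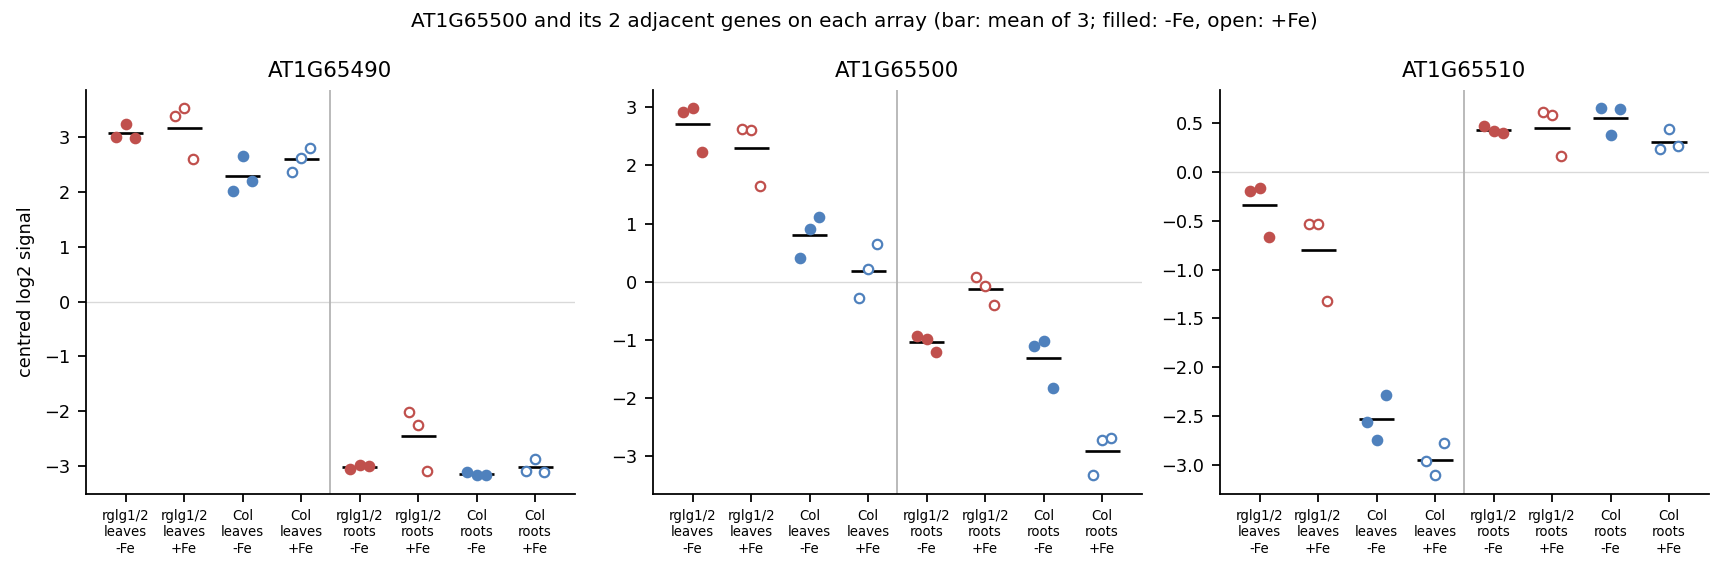
Centred log2 signal of AT1G65490, AT1G65500 and AT1G65510, adjacent genes, on every array, by group, drawn as in the plot of the 3 genes. All leaf arrays of rglg1/2 exceed all of Col for AT1G65500 and AT1G65510, whereas the root groups of AT1G65510 lie close together.

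The likeness of the 3 genes to each other was taken over the arrays of each tissue. In roots the values are those that chose them. Over the 12 root arrays AT1G65500 and AT4G15690 correlated at r = 0.82, AT4G15690 and AT3G46880 at 0.63, and AT1G65500 and AT3G46880 at 0.37. Over the 12 leaf arrays the same pairs gave -0.50, 0.32 and -0.59. These are descriptions across arrays that share groups, and they carry no test.

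Genes most like each of the 3 were sought over the 24 arrays after the mean of each tissue was subtracted. For AT1G65500 they were AT4G14020 (r = 0.92), AT2G32190 (0.92), AT4G39230 (0.91), AT5G39850 (0.90) and AT4G01700 (0.90). AT4G01700, also the most alike over the 12 leaf arrays (r = 0.98, with AT5G18310 at 0.98 and AT4G14020 at 0.98), was higher in rglg1/2 leaves by 1.71 ± 0.28 on -Fe and 2.08 ± 0.28 on +Fe. It was picked for its likeness to AT1G65500 on these same arrays. Its genotype differences are therefore no independent result. For AT4G15690 the most alike were its neighbours AT4G15660 (0.86) and AT4G15700 (0.79), then AT3G28900 (0.78), AT5G50110 (0.76) and AT3G13226 (0.75). Over leaf arrays alone they were AT3G28900 (0.94), AT1G29270 (0.89) and RALFL32 (0.89).

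For AT3G46880 the likeness was lower: AT4G35530 (0.72), AT5G06480 (0.70), NRPC2 (0.70), AT3G48970 (0.70) and AT1G33475 (0.69), and over leaf arrays alone AT3G51530 (0.92), the myosin gene XI-I (0.91) and AT1G64600 (0.89). Such values were the highest among all single-gene probe sets and are high in part because they were selected.

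AT1G72060, the gene just outside the root threshold and named after its values were seen, was also looked up in leaves. It was higher in rglg1/2 leaves on +Fe (1.19 ± 0.26, adjusted p = 0.0123; 0.0537 without rglg1/2 leaves +Fe replicate 1) and rose on -Fe in Col leaves (1.24 ± 0.26, adjusted p = 0.0432), where 0.511% of probe sets rose. The second call was lost without any 1 of Col leaves +Fe replicates 1 and 3 and Col leaves -Fe replicates 1, 2 and 3 (adjusted p of 0.0632 to 0.176).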

How the data were processed

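The authors' deposited table gives log2 signal per probe set for 24 ATH1 arrays; RMA is named per the submitters' processing notes, with no version, and the median of each probe set over the arrays was 0 within 1e-05. Which arrays were normalized together is not given in the sources used here. Of 17854 probe sets, 44 controls were left out. Gene names came from the platform annotation, updated through the TAIR10.1 reference, which was also used to find neighbouring protein-coding genes; 9822 of 9869 single-gene probe sets matched it, 353 named several genes and 7588 none. A listed gene not counted as measured may still be on the array, among the probe sets naming several genes or none. All columns were matched to samples (0 left over). Transcript levels of RGLG1 and RGLG2, promoter sequence and protein sequence were not analysed here.

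Linear models used limma 3.58.1 (lmFit, eBayes) in R 4.3.3, 1 mean per group, on the 12 arrays of a tissue (8 residual degrees of freedom) or on all 24 for the tissue difference. P-values were two-sided and adjusted by the Benjamini-Hochberg method over 17810 probe sets; a call is an adjusted p under 0.05. Errors beside differences are moderated standard errors. The number of arrays limits the precision. The fit was tested on simulated data. Named genes were the 3 genes, called members of the lists (at most 4 examples a list and comparison), the measured genes of the AT4G15660 to AT4G15700 run, the nearest 2 protein-coding genes on each side of AT1G65500 and AT3G46880, and the 5 most alike. The 3 genes and the lists were chosen with earlier results of these data known, and list membership was not checked against a source.

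Same-numbered arrays of the 2 media deviated together in rglg1/2 leaves (r = 0.391, 0.435 and 0.599). Replicate 3 stood apart on both media there, so these values cannot tell a pairing by number from the effect of replicate 3 alone. In Col leaves r was 0.0455 to 0.339, in roots within a genotype -0.0811 to 0.42, and between genotypes -0.288 to 0.165. Whether the numbers mark a pairing is not known. Alternatives were leaving out each replicate, leaving out the rglg1/2 replicate 3 arrays, a replicate block across or within genotypes, quantile normalization, array weights, all 24 or only 6 arrays in a fit, and a robust spread. They were applied to the other CC-type glutaredoxins and other named genes after seeing the data.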

Additional observations from a re-analysis of the deposited data

Results flagged for a closer look

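For all 3 genes every rglg1/2 root array on -Fe lay below every rglg1/2 root array on +Fe, while every Col root array on -Fe lay above every Col root array on +Fe. The difference between the 2 responses was -2.50 for AT1G65500, -1.44 for AT4G15690 and -1.31 for AT3G46880. The difference was not tested here, because it is the contrast that chose the genes. The share of all probe sets with such separate arrays was not counted.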

How the results depend on the processing

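Of 531 values of the 3 genes under the alternatives, 501 kept their direction and side of the threshold (or moved within 1 SD where there was no test) and 30 did not. The cause was not tested. The 531 include the root comparisons, which chose the genes, and tissue differences, which were called at 83.2% of probe sets. The count is therefore no measure of how stable the leaf tests were. Both leaf genotype calls of AT1G65500 and all tissue calls were among those kept. For the Col leaf iron response of AT4G15690, quantile normalization gave 0.0639, array weights 0.0776 and single omissions -0.22 to 0.13; its rglg1/2 leaf response was -0.027 with array weights and -0.0145 to 0.54. Calls gained were the Col leaf iron response of AT1G65500 with the replicate block within genotype (0.62, adjusted p = 0.0208), AT4G15690 in leaves on +Fe with the replicate block (-0.62, adjusted p = 0.0454) or without the replicate 3 arrays (-0.73), and AT3G46880 in leaves on +Fe with array weights (-0.60), all 24 arrays (-0.47) or without rglg1/2 leaves +Fe replicate 1 (-0.65; single omissions ranged to -0.35, and the other 5 gained no call), and on -Fe without the replicate 3 arrays (-0.55) or with all 24 arrays (-0.48). The 2 block fits join arrays by number, and whether the numbers mark a pairing is not known. The fit of all 24 arrays takes part of its spread from the root arrays, which chose the genes. The leaf interaction changed sign for AT3G46880 with quantile normalization (0.0452) and array weights (0.18), and for AT4G15690 with array weights (-0.10); single omissions gave -0.53 to 0.0277 for AT1G65500, -0.00912 to 0.55 for AT4G15690 and -0.13 to 0.17 for AT3G46880. Array weights moved the root interactions of AT1G65500 to -2.91 and of AT3G46880 to -1.49, and the root +Fe genotype difference of AT3G46880 to 0.64. The replicate block across genotypes or within a genotype changed no other call of the 3 genes. Counts of called probe sets depended on the setting. Over all alternatives they were 90 to 766 for the Col leaf iron response (184 as reported), 38 to 1543 for rglg1/2 leaves (76), 1118 to 6628 for the leaf genotype difference on -Fe (2840), 925 to 8248 on +Fe (2557), 0 to 5 for the leaf interaction (0), 514 to 1578 for Col roots (921), 592 to 5097 for rglg1/2 roots (1266), 253 to 1921 for the root genotype difference on -Fe (693), 728 to 5634 on +Fe (1913), and 0 to 393 for the root interaction (3). The deposited values carry no level and no background signal, so how far a probe set lay above background is not known.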
